A study of Mus musculus with 2 samples.

Results

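The mouse Hox genes are 39 transcription factor genes that lie in 4 complexes, and they were followed here in single cells of the aneurysmal aorta. Members were taken by symbol: every gene whose name is Hox, a complex letter from a to d and a number, which gave 39 of the 55450 genes in the deposited matrices. Cells came from the aorta of Apoe-/- mice (no apolipoprotein E, a strain prone to atherosclerosis) at 12 weeks of age, all with an abdominal aortic aneurysm (AAA) induced with angiotensin II (Ang II), a peptide that raises blood pressure. The series design names DMSO, the usual solvent control, and an inhibitor. The initials in the sample titles were read as these groups, with 1 library in each. Both groups thus share the genotype, the age and the Ang II treatment, and differ in the agent given. The sources used here name no inhibitor, dose or timing, and state neither how many animals a library pools nor which segment a cell came from. Aortas were cut into 5 segments and digested before droplet capture. The Hox genes are the available reading related to place along the vessel, and an effect of the agent on their transcription cannot be told apart from it. With 1 library per group no test between groups was possible: every comparison below is between 2 libraries, and intervals are exact 95% intervals that cover counting error only.

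Hox proteins bind DNA through the homeodomain and give cells of the embryo their position between head and tail. Genes at one end of each complex are switched on early and towards the head, and those at the other end later and towards the tail, so that the paralogue number, the figure in the gene name, follows the body axis. Adult smooth muscle cells, fibroblasts and endothelial cells keep part of this pattern, and vessels from different levels of the body differ in the Hox genes they transcribe. In what follows groups 1 to 3 are called anterior, 4 to 8 central and 9 to 13 posterior.

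In the GRCm38 mouse genome the complexes are compact. The Hoxa complex has 11 genes in 105 kb (chr6:52155590-52260880), Hoxb 10 genes in 174 kb (chr11:96194316-96368256), Hoxc 9 genes in 116 kb (chr15:102921103-103036852) and Hoxd 9 genes in 96.8 kb (chr2:74668310-74765142). Members that carry the results below are shown by their homeobox, the 180 coding bases of the homeodomain, which lies in a single exon in each. Capitals mark the 18 bases that encode the conserved stretch of the third helix, which contacts DNA. Hoxa5 (chr6:52202632-52202811, minus strand) and Hoxc8 (chr15:102992571-102992750, plus strand) are central members. Hoxb9 (chr11:96274659-96274838, plus strand), Hoxa10 (chr6:52232554-52232733, minus strand) and Hoxc10 (chr15:102970848-102971027, plus strand) are posterior. Each sequence is 5′ to 3′ on the coding strand, from the GENCODE transcripts.
Hoxa5: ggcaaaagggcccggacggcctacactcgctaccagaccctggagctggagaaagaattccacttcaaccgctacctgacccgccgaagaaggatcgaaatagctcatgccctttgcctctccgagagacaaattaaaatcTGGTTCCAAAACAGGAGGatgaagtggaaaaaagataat
Hoxc8: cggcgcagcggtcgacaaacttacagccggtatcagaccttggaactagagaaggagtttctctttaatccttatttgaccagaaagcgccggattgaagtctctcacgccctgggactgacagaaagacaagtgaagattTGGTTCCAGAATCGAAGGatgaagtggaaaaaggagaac
Hoxb9: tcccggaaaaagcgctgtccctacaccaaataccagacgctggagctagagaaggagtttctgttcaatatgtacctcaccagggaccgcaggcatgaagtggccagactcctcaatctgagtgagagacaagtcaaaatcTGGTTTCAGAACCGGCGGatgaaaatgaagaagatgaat
Hoxa10: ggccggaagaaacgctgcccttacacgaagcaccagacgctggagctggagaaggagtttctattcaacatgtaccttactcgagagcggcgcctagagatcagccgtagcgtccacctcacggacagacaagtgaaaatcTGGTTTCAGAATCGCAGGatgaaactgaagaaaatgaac
Hoxc10: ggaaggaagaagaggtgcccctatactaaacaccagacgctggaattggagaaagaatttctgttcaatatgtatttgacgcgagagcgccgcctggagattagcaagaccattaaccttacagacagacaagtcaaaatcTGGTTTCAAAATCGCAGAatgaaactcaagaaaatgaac

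Homeoboxes of the same paralogue group are more alike than those of other pairs, by the median. Hoxa10 and Hoxc10, on different chromosomes, share 145 of 180 bases, against 111 for Hoxa10 and Hoxa5 on the same chromosome. Over all members the median was 145 shared bases for the 42 pairs of the same group and 109 for the 699 other pairs. The other pairs reach 160, as in the neighbours Hoxb6 and Hoxb7, and pairs of the same complex were not summed up apart. The libraries read the 3′ end of transcripts and not the homeobox. In the last 500 exon bases of each member no base was shared with another annotated gene on the same strand, except 22 in Hoxd4, so members are told apart by their 3′ ends. Over whole gene models 62.3% of the exon bases of Hoxd3 and 52.3% of those of Hoxd4 are shared, and their levels are therefore uncertain.

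The promoters of the members also differ in base composition. A pair of central members is shown because cell types used them to different extents, as described below. Hoxa5 was among the highest members in smooth muscle, fibroblasts and blood endothelium, and Hoxd8 had its highest level in lymphatic endothelium. The 250 bases before the start site come from RefSeq (GRCm38.p6), chr6:52204588-52204837 on the minus strand for Hoxa5 and chr2:74704365-74704614 on the plus strand for Hoxd8. Capitals mark CG dinucleotides, the sites of DNA methylation.
Hoxa5: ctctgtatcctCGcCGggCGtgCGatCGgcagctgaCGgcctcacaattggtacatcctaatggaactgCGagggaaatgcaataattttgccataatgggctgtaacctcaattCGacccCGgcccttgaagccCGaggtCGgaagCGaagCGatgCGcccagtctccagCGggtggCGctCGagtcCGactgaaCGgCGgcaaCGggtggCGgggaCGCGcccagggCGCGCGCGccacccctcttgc
Hoxd8: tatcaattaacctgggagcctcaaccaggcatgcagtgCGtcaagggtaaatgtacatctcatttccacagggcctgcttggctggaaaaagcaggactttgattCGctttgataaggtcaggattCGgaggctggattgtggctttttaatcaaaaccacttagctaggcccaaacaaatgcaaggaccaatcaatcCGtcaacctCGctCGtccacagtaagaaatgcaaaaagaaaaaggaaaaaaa
The Hoxa5 window holds 28 CG dinucleotides, a number reached by 7.61% of 32851 promoters, and the Hoxd8 window holds 6, the median of all promoters. For the 24 windows of the 22 members with an entry the median was 12.5. The letters AGGTCA, the core of sites bound by retinoic acid receptors, were searched on both strands: they occur in 6 of these members, Hoxd8 among them, and in 14% of all promoters. A match is a run of letters and no measure of binding.

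The libraries were of like size. The DMSO library had 9125 barcodes and 101139161 unique molecular identifiers (UMIs, each 1 captured transcript), and the inhibitor library 8149 and 79648307. After filtering, 8411 and 7417 cells were kept, with a median of 7935 and 8991 UMIs. The libraries share 16 barcodes, and the main result below is also given without them. Cells were clustered without the Hox genes and without the markers, and clusters were named from marker lists, so names carry "-like". Smooth muscle-like cells numbered 694 in the DMSO and 2835 in the inhibitor library, fibroblast-like cells 1942 and 1952, and endothelial-like cells 870 and 545. Levels are given as CPM (UMIs of a gene for each 1000000 UMIs of the class and library). The smooth muscle markers (Myh11, Acta2 and 6 others) summed to 30015 and 42575 CPM in smooth muscle-like cells. In fibroblast-like cells they summed to 979 and 1411 CPM. Since clusters were named from these markers, the sums do not check the names or the label of aorta. Median depth differed: 14293 against 10942 UMIs per cell in smooth muscle-like, 15608 against 8756 in fibroblast-like and 4394 against 3504 in endothelial-like cells.

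Hox transcripts were read in nearly the whole family. With 32780 Hox UMIs in the DMSO and 26318 in the inhibitor library, 37 and 36 of the 39 members had at least 1 UMI. The absent members are among the most posterior: Hoxd12 and Hoxd13 had 0 UMIs in both libraries, and Hoxb13 had 1. These genes are known from the tail end, the limbs and the urogenital tract. Over both libraries Hoxa7 (6658 UMIs), Hoxa5 (6411) and Hoxc8 (6043), central genes of the trunk, had the most. Hoxc6 (3689), Hoxc10 (3446) and Hoxb2 (3434) came next, and Hoxc10 alone of these 6 is posterior.

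Stromal and vascular cells held Hox transcripts and immune cells had lower levels. Endothelial-like cells had the highest summed level of the 3 main classes, at 567 CPM in the DMSO and 525 CPM in the inhibitor library. Fibroblast-like cells had 449 and 442 CPM, and smooth muscle-like cells 425 and 355 CPM. The order of these classes was the same in both libraries. Lymphatic endothelial-like cells were near blood endothelium at 541 and 457 CPM, and Schwann-like cells, the glia of nerves, had 222 and 187 CPM. Macrophage-like cells, whose origin was not read here, had 28.0 and 28.1 CPM. T or NK-like cells had 35.9 and 20.8 CPM. Neutrophil-like cells had 46.9 and 132 CPM, the latter from 14 Hox UMIs in 52 cells. Free RNA in the droplets adds UMIs to every class, and a member whose level elsewhere is near that in macrophage-like cells may be background. Of the members only Hoxb4, at 10.1 and 11.3 CPM, was above 5 CPM in macrophage-like cells.

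**Figure D1:**
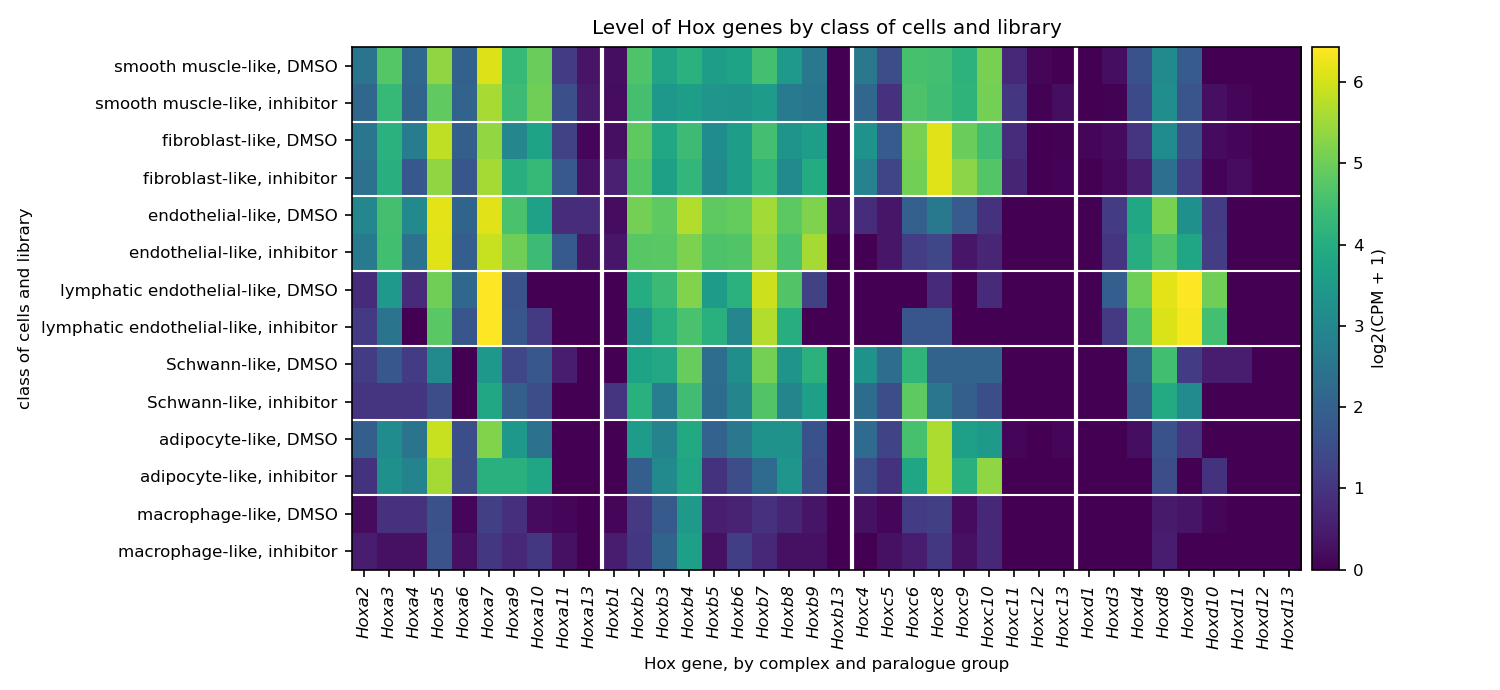
Level of the Hox genes, 1 of which is not drawn, as log2(CPM + 1) in colour, by class of cells and library (vertical axis) and by complex and paralogue group (horizontal axis). The Hoxc block is bright in smooth muscle-like, fibroblast-like and adipocyte-like cells and dark in both endothelial classes, where the Hoxd block is brighter, and both libraries show this.

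The classes differed in which complex they used, more than the libraries did. Smooth muscle-like cells took 46.3% (44.8 to 47.7) of their Hox UMIs from Hoxa in the DMSO library and 45.1% (44.2 to 46.0) in the inhibitor library. Hoxc gave 37.3% (36.5 to 38.1) and 38.9% (37.9 to 39.9) in fibroblast-like cells, the largest share of the 4 complexes there. In endothelial-like cells Hoxb came first, with 48.8% (47.2 to 50.4) and 47.3% (44.9 to 49.7), while Hoxc gave 2.21% (1.76 to 2.74) and 0.777% (0.414 to 1.33). The Hoxc complex was thus nearly silent in endothelium in both libraries: Hoxc8 stood at 5.04 and 1.57 CPM there, against 69.5 and 67.9 CPM in fibroblast-like and 1.34 and 1.06 CPM in macrophage-like cells. Hoxd, the smallest contributor in smooth muscle and fibroblasts, was the mark of lymphatic endothelium. Lymphatic endothelial-like cells shared the lack of Hoxc (0.261% and 1.01%), and took 41.1% (37.6 to 44.7) and 42.3% (37.4 to 47.3) of their Hox UMIs from Hoxd. Hoxd gave 10.3% and 10.4% in blood endothelial-like cells and between 1.38% and 3.43% in smooth muscle-like and fibroblast-like cells. Schwann-like cells took 57.1% (52.9 to 61.3) and 51.8% (44.6 to 58.9) from Hoxb, and 12.1% and 13.2% from Hoxd.

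**Figure D2:**
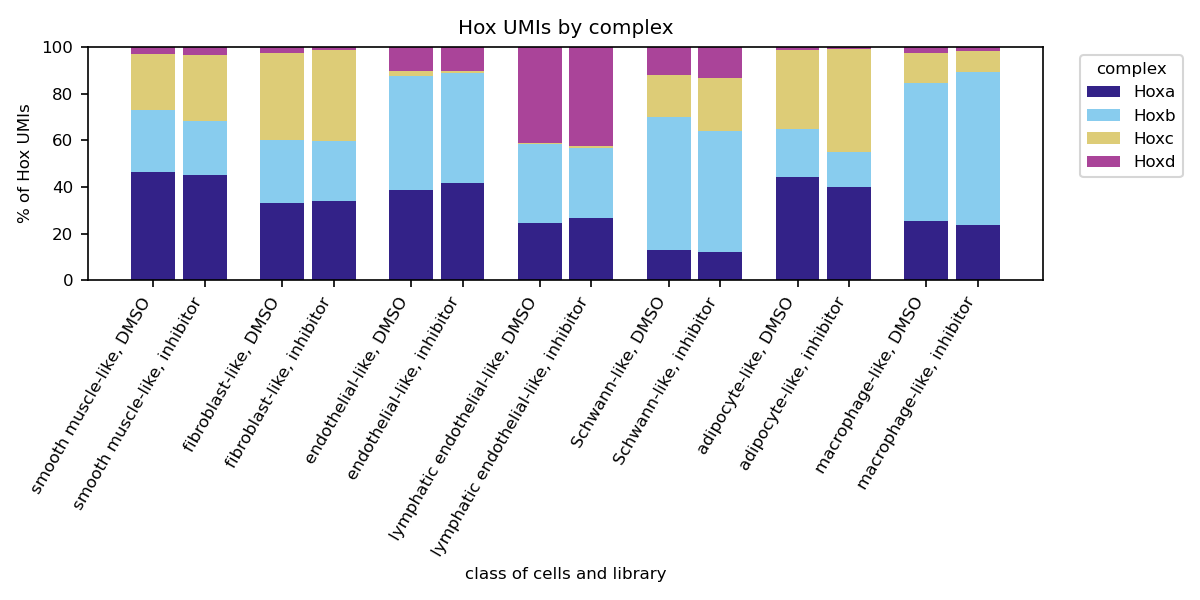
Share of the Hox UMIs that each complex gave, in percent (vertical axis), for 7 classes in each library (horizontal axis), with bars stacked to 100%. Hoxc is a sliver in endothelial-like cells (2.21% and 0.777%) and the largest part in fibroblast-like cells, and the 2 bars of a class resemble each other.

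The highest members differed between these classes, though some were high in several. Smooth muscle-like cells had Hoxa7 as their highest member, at 66.8 CPM in the DMSO and 47.1 CPM in the inhibitor library, ahead of Hoxa5 (40.2 and 27.9) and the posterior genes Hoxc10 (33.8 and 32.8) and Hoxa10 (30.1 and 31.7). In fibroblast-like cells Hoxc8 led, ahead of Hoxa5 (55.7 and 40.3), Hoxa7 (40.8 and 46.5) and Hoxc9 (30.6 and 38.5). CPM of a 3′ library counts captured transcript ends, so levels of different genes are compared without a correction for length. Endothelial-like cells had Hoxa5 (70.5 and 68.4), Hoxa7 (69.8 and 58.4), Hoxb4 (50.7 and 34.8) and Hoxb7 (45.8 and 42.7) among their highest members, and Hoxb9, at 35.3 and 46.4, was the third highest in the inhibitor library. Hoxd9 and Hoxd8, neighbours in the Hoxd complex, had their highest levels in lymphatic endothelium. Hoxd9 stood at 85.4 and 80.6 CPM in lymphatic endothelial-like cells, against 8.40 and 12.9 CPM in blood endothelial-like cells and 2.63 and 2.22 CPM in smooth muscle-like cells. Hoxa7, high in the other classes too, was near Hoxd9 in lymphatic endothelial-like cells, at 84.7 and 84.0 CPM. Hoxd8 stood at 71.3 and 65.6 CPM in lymphatic endothelial-like cells, against 34.4 and 24.5 CPM in blood endothelial-like cells. Hoxb9, a posterior gene with these levels in blood endothelium, was at 1.41 and 0 CPM in lymphatic endothelial-like cells, where 2 and 0 UMIs were counted.

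The mix of axial positions read from the Hox genes was not alike in the libraries: the posterior share was higher in the inhibitor library in each of the 3 main classes. Over all kept cells groups 9 to 13 gave 19.0% (18.6 to 19.5) of Hox UMIs in the DMSO and 29.9% (29.4 to 30.5) in the inhibitor library. In smooth muscle-like cells the posterior share was 25.8% (24.5 to 27.0) and 31.8% (30.9 to 32.6), a difference of 6.03 percentage points (4.50 to 7.54). Fibroblast-like cells had 19.2% (18.6 to 19.8) and 26.5% (25.6 to 27.5), a difference of 7.33 points (6.22 to 8.44). Endothelial-like cells had 15% (13.9 to 16.2) and 22.2% (20.2 to 24.2), a difference of 7.14 points (4.84 to 9.50). The intervals of the libraries do not overlap in any of the 3 classes, and smooth muscle-like cells were the most posterior class of the 3 in both libraries. Without the shared barcodes the 3 differences were 5.94, 7.38 and 7.09 points. The central groups were lower in exchange. They gave 57.8% and 52.3% in smooth muscle-like, 66.3% and 60.2% in fibroblast-like, and 68.4% and 62.0% in endothelial-like cells. Anterior shares lay close together, at 16.5% and 15.9%, 14.5% and 13.2%, and 16.5% and 15.8%.

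Levels show how the shares arose. In smooth muscle-like cells the posterior groups summed to 109 CPM (103 to 116) in the DMSO and 113 CPM (109 to 117) in the inhibitor library, with overlapping intervals, while the central groups stood at 246 and 186 CPM and the anterior groups at 70.0 and 56.5 CPM. In this class the posterior share was higher beside a lower central and anterior level. In fibroblast-like cells the posterior groups stood at 86.2 CPM (83.2 to 89.3) and 117 CPM (113 to 122), and the central groups at 298 and 267 CPM. In endothelial-like cells the posterior groups stood at 85.2 CPM (78.3 to 92.6) and 116 CPM (105 to 129), and the central groups at 388 and 326 CPM. Pooled over the cells of a class, the posterior level itself was thus higher in the inhibitor library in fibroblast-like and endothelial-like cells, and the levels within clusters, below, were not all so.

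**Figure D3:**
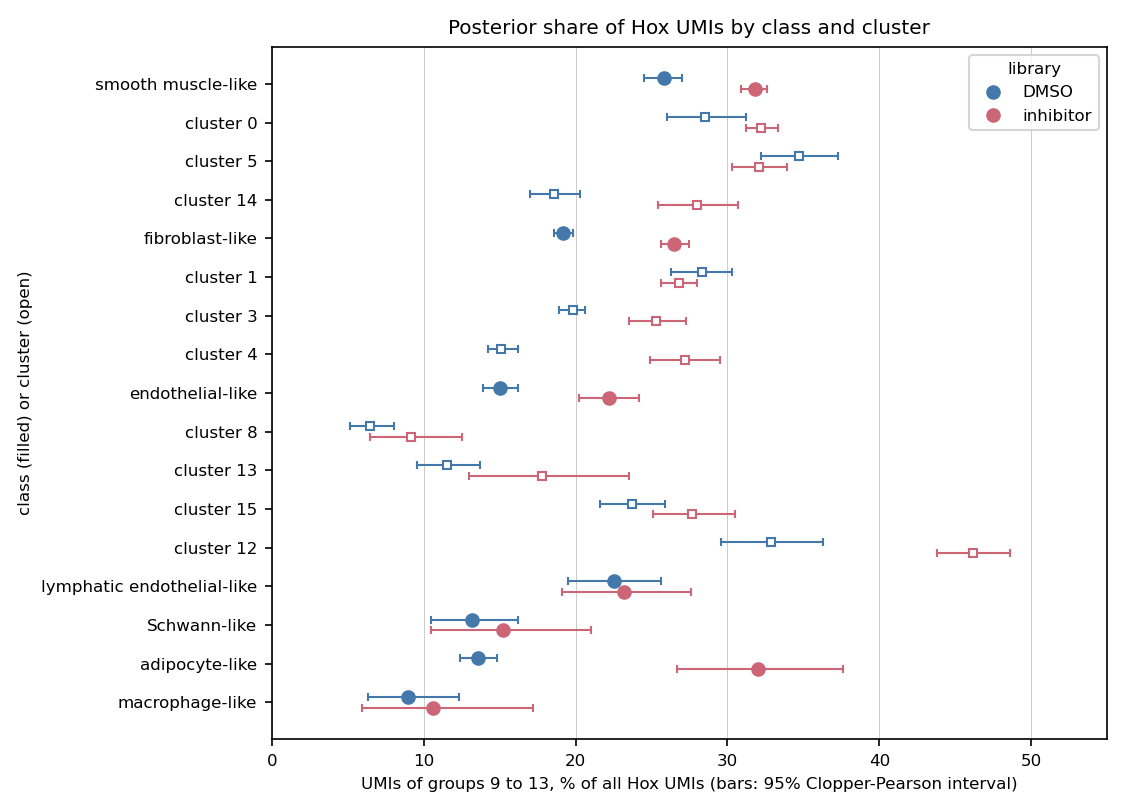
Posterior share of Hox UMIs (horizontal axis, percent, with exact 95% intervals) for classes (filled circles) and their clusters (open squares) in the DMSO and inhibitor libraries. The inhibitor library lies to the right in all 3 main classes, while clusters 5 and 1 lie slightly to the left and cluster 12 is farthest to the right of all, at 46.2%; cluster 24, with 7 inhibitor cells, is not drawn.

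The classes are made of clusters that the libraries filled unequally, and the posterior share differs between clusters. Of the smooth muscle-like cells, cluster 0 (led by Sost, Mylk4 and the heat shock genes Hspb1 and Hspa1a) held 24.1% in the DMSO and 67.4% in the inhibitor library. Cluster 5 (Rgs17, Itga8, Lmod1) held 33.7% and 26.9%, and cluster 14 (Igfbp2, Cemip, Eln and the cartilage proteoglycan gene Acan) 42.2% and 5.64%. Cluster 14, common in the DMSO library, was the least posterior of these in that library. Its posterior share was 18.6% in the DMSO and 28.0% in the inhibitor library, a difference of 9.39 points (6.28 to 12.6). Cluster 0 had 28.5% and 32.2%, a difference of 3.68 points (0.843 to 6.43), and cluster 5 had 34.7% and 32.1%, a difference of -2.63 points (-5.79 to 0.501). The posterior level was higher in the inhibitor library in cluster 14 (68 and 99.3 CPM) and lower in cluster 0 (130.2 and 109.8 CPM) and cluster 5 (184 and 131 CPM), so in cluster 0 the share was higher beside lower levels of all zones. With clusters weighted the same in both libraries the difference of the class was 2.97 points (28.4% and 31.3%), below the 6.03 points of the pooled cells. It was 1.27 points with called doublets kept and 1.43 points at a coarser clustering; in these settings 8.83% and 10.6% of the cells of cluster 14 stayed in the class.

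Fibroblast-like cells showed the same unequal filling. Cluster 1 (Angptl7, Fmod, Rbp4) held 20% of the DMSO and 71.0% of the inhibitor cells, cluster 3 (Cxcl5, Mmp3, Timp1) 42.2% and 11.1%, and cluster 4 (Penk, Cxcl13, Ccl11) 34.7% and 17.6%. The posterior share of cluster 1 was 28.3% and 26.8%, a difference of -1.48 points (-3.85 to 0.837). Cluster 3 had 19.8% and 25.3%, 5.55 points apart (3.49 to 7.67), and cluster 4 had 15.1% and 27.2%, 12.0 points apart (9.57 to 14.5). The fibroblast clusters common in the DMSO library were thus less posterior in that library than cluster 1, and in the inhibitor library clusters 1, 3 and 4 lay between 25.3% and 27.2%. The posterior level was 149 and 125 CPM in cluster 1, lower in the inhibitor library, 92.3 and 109 CPM in cluster 3, and 61.4 and 105 CPM in cluster 4. With equal weights the difference of the class was 5.05 points.

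Endothelial clusters differed from one another more than the libraries did. Cluster 15 (Cytl1, Bmx and Gja5, genes of arterial endothelium) had a posterior share of 23.7% in the DMSO and 27.7% in the inhibitor library, and held 18.7% and 43.3% of the class. Cluster 8 (Gpihbp1 and Car4, genes of capillary endothelium) had 6.46% and 9.14%, and held 44.4% and 32.3%. Cluster 13 (Vwf, Aplnr, Plvap, Ackr1) had 11.5% and 17.8%. Hoxb9 differed between these clusters: it stood at 64.7 and 71.5 CPM in cluster 15, 30.7 and 19.2 CPM in cluster 13, and 9.48 and 10.4 CPM in cluster 8. Hoxa9 in cluster 15 was at 49.7 and 40.5 CPM and Hoxa10 at 26.3 and 32.7 CPM. The differences within clusters were 4.01 points (0.563 to 7.49), 2.68 points (-0.425 to 6.27) and 6.29 points (0.986 to 12.3), and with equal weights the class differed by 4.24 points in place of 7.14. The posterior level was 155 and 165 CPM in cluster 15, 31.7 and 40.5 CPM in cluster 8 and 63.7 and 75 CPM in cluster 13, closer together than the 85.2 and 116 CPM of the class. Over the 3 classes the posterior share was higher in the inhibitor library in 8 of 10 clusters. These include cluster 0, where the posterior level was lower, cluster 8, whose interval includes 0, and cluster 24, with 18 Hox UMIs in the inhibitor library.

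Cluster 12, with 127 DMSO and 366 inhibitor cells, was the most posterior of these clusters in the inhibitor library. It carries 8 of 8 smooth muscle markers and is led by Pln, Sorbs2 and Des, genes of the contractile apparatus and its calcium handling. Because the pericyte marker Notch3 is among its 10 leading genes it was kept out of the smooth muscle-like class. Its posterior share was 32.9% (29.6 to 36.3) in the DMSO and 46.2% (43.8 to 48.6) in the inhibitor library, 13.3 points apart (9.17 to 17.3). The posterior level was 154 and 156 CPM, near equal, while the central level was 258 and 151 CPM and the anterior level 56.4 and 30.1 CPM. Hoxa10 stood at 42.3 and 49.7 CPM and Hoxc10 at 40.5 and 45.0 CPM. Hoxa5 (28.2 and 12.2) and Hoxa3 (14.1 and 7.27), genes of more anterior groups, were lower in the inhibitor library. Hoxa13, the last gene of the Hoxa complex, was read at 4.70 and 4.52 CPM in cluster 12, against 0.273 and 0.390 CPM in the smooth muscle-like class. With this cluster counted as smooth muscle-like, an alternative chosen after seeing the data, the difference of the class was 6.81 points.

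Gene by gene, a member was called higher or lower if its CPM in the libraries was at least 1.5-fold apart and both together held at least 20 of its UMIs. Of the 39 members 28 could be measured in smooth muscle-like cells: 2 were higher in the inhibitor library, 3 lower and 23 between. Over all 15357 genes measured by the same rule 7.80% were higher and 20.1% lower, so the members' counts are near this background. The lower members are Hoxb7, at 21.7 and 10.8 CPM (ratio of inhibitor to DMSO 0.496, 0.420 to 0.586), its neighbour Hoxb8, at 9.90 and 5.43 CPM (0.548, 0.430 to 0.702), and Hoxc5 (0.471, 0.261 to 0.866). All 3 are central genes. The higher members Hoxa11 (1.68, 0.916 to 3.31) and Hoxc11 (1.60, 0.700 to 4.29) are posterior, have few UMIs, and their intervals reach below 1. Among the members with the highest levels, Hoxa7 had a ratio of 0.706 (0.646 to 0.772), Hoxa5 0.693 and Hoxa3 0.726, while Hoxc10 (0.971) and Hoxa10 (1.05) were near 1. The median log2 ratio was -0.21 for the members and -0.12 for all genes.

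The anterior members of smooth muscle-like cells, which act in the hindbrain and neck of the embryo, lay between these limits. Hoxb2, a gene of the hindbrain, stood at 24.3 and 22.1 CPM (0.912, 0.792 to 1.05), and Hoxb3 at 12.6 and 9.86 CPM (0.781, 0.639 to 0.960). Hoxa2 was at 4.54 and 3.36 CPM. These are small differences beside the counting intervals except for Hoxb3 and Hoxa3. Of the central Hoxb genes only Hoxb7 and Hoxb8 passed the 1.5-fold limit. Hoxb4 was at 16.4 and 11.2 CPM (0.686, 0.573 to 0.824), near its 10.1 and 11.3 CPM in macrophage-like cells, and the part of background in it was not tested. Hoxb5 was at 11 and 9.23 CPM (0.840, 0.679 to 1.05) and Hoxb6 at 12.4 and 9.05 CPM (0.728, 0.593 to 0.897). The central Hoxc genes were split: Hoxc8, at 21.7 and 20.9 CPM, and Hoxc6, at 22.6 and 24 CPM, were near equal in the libraries, while Hoxc4 had a ratio of 0.672 (0.483 to 0.946) and Hoxc5 is among the lower members. The 11 members under 20 UMIs had between 0 and 16 UMIs over both libraries, with Hoxa13 at the upper end.

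In fibroblast-like cells, where 28 members were measured, 3 were higher in the inhibitor library, 5 lower and 20 between. The background was 8.36% higher and 19.2% lower among 16905 genes, so both counts are near the background. The higher members are neighbours at the posterior end of the Hoxa complex. Hoxa9 stood at 6.84 CPM in the DMSO and 15.5 CPM in the inhibitor library (2.27, 1.91 to 2.70), and Hoxa10 at 12.2 and 18.9 CPM (1.54, 1.34 to 1.78). Hoxa11, the next gene, had a ratio of 1.82 (1.19 to 2.77). The lower members with values here are central: Hoxa4, at 5.47 and 2.40 CPM (0.438, 0.313 to 0.604), Hoxd8, at 7.73 and 4.10 CPM (0.530, 0.409 to 0.681), Hoxc5 (0.582) and Hoxd4 (0.476, 0.200 to 1.02). The 5 measured posterior members outside Hoxa were split within the limit: Hoxc9 (1.26), Hoxb9 (1.33) and Hoxc10 (1.18) lay above 1, and Hoxd9 (0.671, 0.405 to 1.08) and Hoxc11 (0.775, 0.358 to 1.58) below it. Hoxa7, a central gene, had a ratio of 1.14 (1.05 to 1.24) here and 0.706 in smooth muscle-like cells. Hoxa5, at 0.724, was lower in both classes. The median log2 ratio was -0.15 for the members and -0.09 for all genes.

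The fibroblast difference in the posterior Hoxa genes was not spread evenly over clusters. In cluster 4 Hoxa9 stood at 3.84 and 15.5 CPM, Hoxa10 at 5.69 and 17.3 CPM, and Hoxc10 at 14.6 and 24.9 CPM. In cluster 1, which made up most of the inhibitor class, Hoxa10 was at 30.8 and 21.9 CPM, lower in the inhibitor library. With clusters weighted the same in both libraries Hoxa11 had a ratio of 0.799 and 1 member in place of 3 was higher. Smooth muscle clusters differed likewise: Hoxc10 was at 68.2 and 36.1 CPM in cluster 5 and at 17.8 and 20.7 CPM in cluster 14, and Hoxa10 at 20 and 26.6 CPM in cluster 14. The 11 members under 20 UMIs in fibroblast-like cells had at most 17.

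In endothelial-like cells 22 members were measured, of which 2 were higher in the inhibitor library, 3 lower and 17 between. Among 13133 genes 6.62% were higher and 17.3% lower, again near the members' counts. The higher members are posterior: Hoxa10, at 11.9 and 20.4 CPM (1.71, 1.21 to 2.41), and Hoxd9, at 8.40 and 12.9 CPM (1.53, 0.997 to 2.34). Of the lower members Hoxa4 had a ratio of 0.612 (0.311 to 1.13), and Hoxc6 (0.433, 0.107 to 1.30) and Hoxc8 (0.311, 0.0949 to 0.803) belong to the complex that endothelium hardly used. The level of Hoxc8 in the inhibitor library, 1.57 CPM, is near that of macrophage-like cells. Hoxb9 had a ratio of 1.32 and Hoxa9, at 23.2 and 31.7 CPM, one of 1.37. Within clusters both went either way, Hoxb9 lower in cluster 13 and Hoxa9 lower in cluster 15 in the inhibitor library, while cluster 15, where both are highest in the DMSO library, held 18.7% of the class in the DMSO and 43.3% in the inhibitor library. Hoxb4 had a ratio of 0.687 (0.549 to 0.854). The median log2 ratio was -0.21, against -0.08 for all genes, and the 17 members under 20 UMIs had at most 18. With a 2-fold limit no member was higher in smooth muscle-like or endothelial-like cells, and 1 was in fibroblast-like cells.

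**Figure D4:**
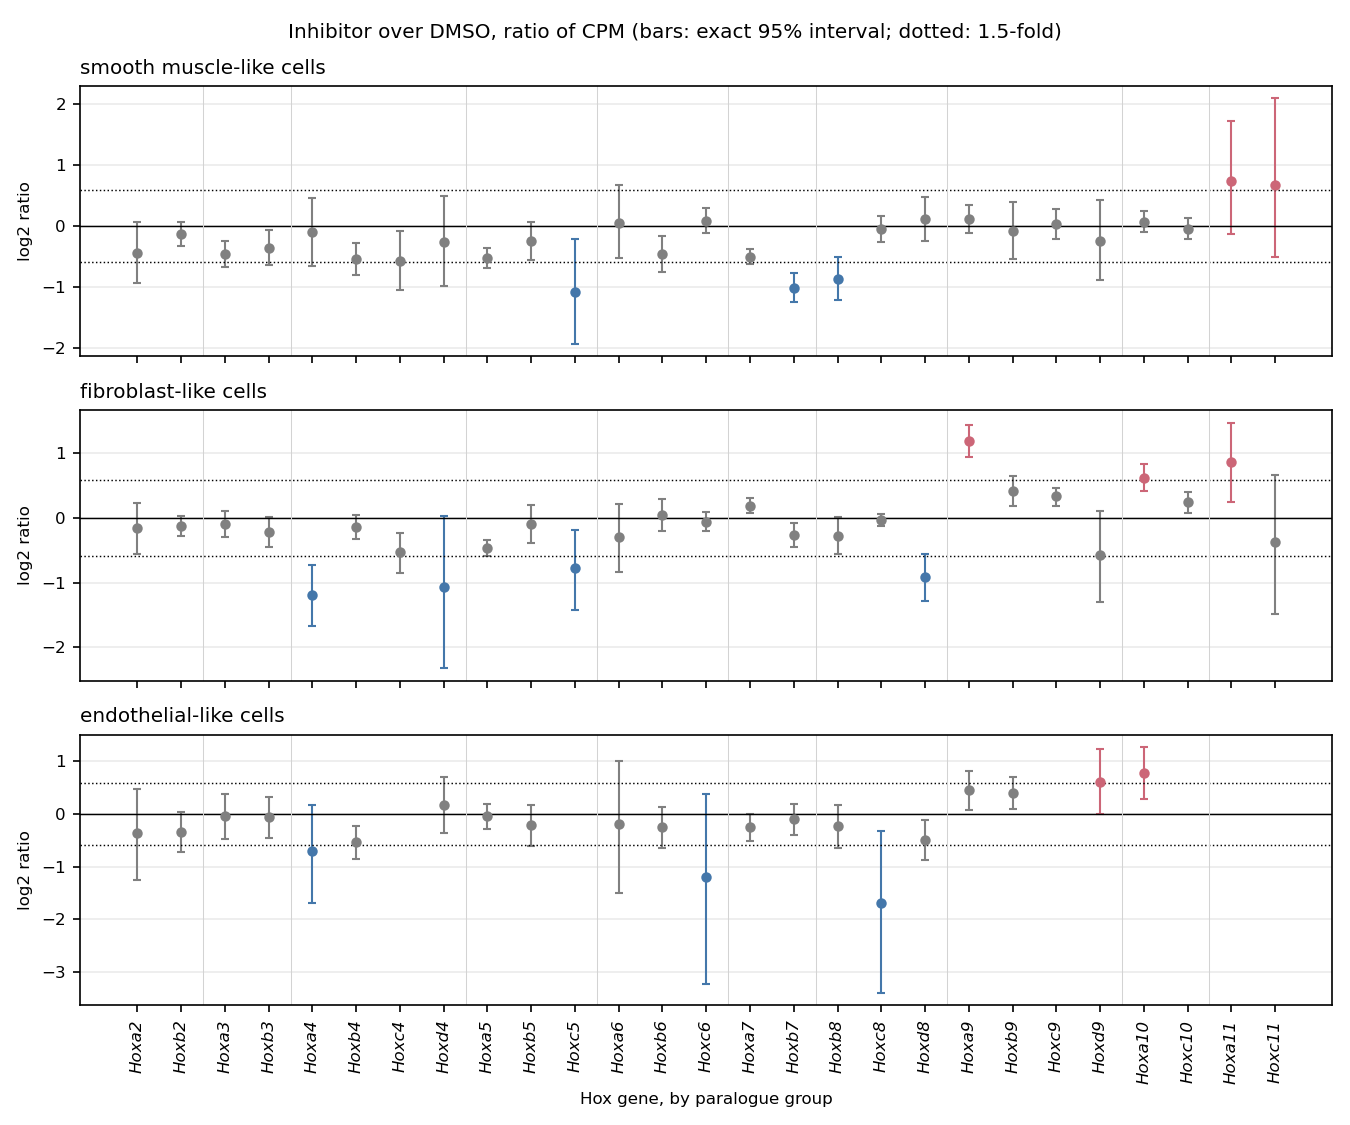
Ratio of inhibitor to DMSO CPM for the measured members, 1 of which is not drawn, on a log2 axis with exact 95% intervals, by paralogue group from left to right, in smooth muscle-like, fibroblast-like and endothelial-like cells. Dotted lines mark 1.5-fold, red points are higher and blue points lower by the rule; in fibroblast-like cells Hoxa9, Hoxa10 and Hoxa11 stand above the upper line, and in smooth muscle-like cells Hoxb7 and Hoxb8 below the lower one.

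Markers of other cell types moved with the library inside these classes. Fibroblast markers in smooth muscle-like cells summed to 2142 CPM in the DMSO and 394 CPM in the inhibitor library (8 of 8 lower, none at 0), and the macrophage markers to 87.5 and 38.8 CPM (7 of 7 lower). In fibroblast-like cells the macrophage markers summed to 130.2 and 54.3 CPM (7 of 7 lower) and the smooth muscle markers to 979 and 1411 CPM (7 of 8 higher). In endothelial-like cells smooth muscle markers summed to 1893 and 3145 CPM (8 of 8 higher), fibroblast markers to 1567 and 738 CPM (8 of 8 lower) and pericyte markers to 273 and 141 CPM (6 of 6 lower). The part of this admixture in the Hox values was not tested; subtracting the macrophage-like level left differences in posterior share of 6.61, 7.72 and 7.47 points in the 3 classes.

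Outside the main classes the libraries differed in adipocyte-like cells and not clearly in others. Adipocyte-like cells, 475 in the DMSO and 45 in the inhibitor library, had a posterior share of 13.6% (12.4 to 14.8) and 32.0% (26.7 to 37.6), 18.4 points apart (13 to 24.2). The posterior level was 39.0 and 87.6 CPM. Of this Hoxc10 gave 10.2 CPM (8.47 to 12.3) and 40.1 CPM (29.0 to 54.0), and Hoxa10 4.38 and 13.1 CPM. In these cells Hoxa7 was at 36.2 and 15.9 CPM, and Hoxc8 at 48.9 and 48.5 CPM. Lymphatic endothelial-like cells had 22.5% and 23.2% (difference 0.719 points, -4.41 to 6.05), and Schwann-like cells 13.2% and 15.2% (2.06 points, -3.57 to 8.45). With 136 and 86 lymphatic and 452 and 225 Schwann-like cells, the intervals include 0 and also reach differences of about the size seen in the main classes. The highest members of Schwann-like cells were Hoxb7 (33.2 CPM) and Hoxb4 (29.6 CPM) in the DMSO library and Hoxc6 (27.5 CPM) and Hoxb7 (24.7 CPM) in the inhibitor library. Hoxb7 and Hoxb4 were higher still in blood endothelial-like cells.

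Counted by cells instead of UMIs, the classes did not all show the same order. At full depth 96.7% of DMSO and 91.2% of inhibitor smooth muscle-like cells held at least 1 Hox UMI, 93.5% and 87.0% of fibroblast-like and 76.0% and 72.7% of endothelial-like cells. Because depth differs, each cell was also thinned to 2000 UMIs, leaving out 1337 and 865 shallower cells. The shares were then 57.5% and 49.2%, 54.6% and 57.0%, and 63.9% and 62.5%. Endothelial-like cells, shallow but rich in Hox transcripts, came first at equal depth. Macrophage-like cells had 5.39% and 5.72% after thinning (17.2% and 15.4% before), T or NK-like cells 5.29% and 3.17%, and neutrophil-like cells 10.1% and 7.69%.

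For a posterior UMI the thinned share was 22.2% (19.1 to 25.6) and 19.0% (17.6 to 20.6) in smooth muscle-like cells, 16.3% (14.6 to 18.0) and 20% (18.2 to 22.0) in fibroblast-like cells, and 13.6% (11.1 to 16.5) and 18.5% (14.7 to 22.7) in endothelial-like cells. It was higher in the inhibitor library in fibroblast-like and endothelial-like cells, as the summed CPM was. The order in smooth muscle-like cells goes against their CPM, with an interval of the difference from -6.86 to 0.242 points, and none is read from it. Without thinning the shares were 57.1% and 53.7%, 51.5% and 50.3%, and 27.2% and 30.1%, so that the fibroblast order turns with depth. Macrophage-like cells had 0.825% and 0.163% after thinning. T or NK-like cells had 1.32% and 0%, where 0 of 63 cells held one and the exact interval reaches 5.69%. Posterior transcripts were thus found in a far larger share of vascular than of macrophage-like or T or NK-like cells at equal depth.

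Single cells of both libraries ranged widely in posterior share. Among cells with 5 or more Hox UMIs, 33.4% of 446 DMSO and 26.0% of 1084 inhibitor smooth muscle-like cells had no posterior UMI, and in 21.5% and 29.8% posterior genes gave 50% or more. In fibroblast-like cells 35.5% of 1238 and 25.7% of 768 had none, and 11.3% and 21.1% had 50% or more. In endothelial-like cells 40.1% of 267 and 19.6% of 107 had none, and 3.0% and 12.1% had 50% or more. Among cells with this many Hox UMIs, mostly posterior ones were thus a larger part in the inhibitor library and ones without any posterior UMI a smaller part. These shares do not describe whole classes, since 446 of 694 DMSO but 1084 of 2835 inhibitor smooth muscle-like cells reached 5 Hox UMIs. Cluster 12 was the most posterior by cells too, with 26.9% of 78 and 48% of 152 at 50% or more. Anterior and posterior UMIs often stood in the same cell, in 41.5% and 39.0% of these smooth muscle-like, 45.2% and 42.3% of these fibroblast-like and 47.2% and 56.1% of these endothelial-like cells. A cell high on the count of UMIs enters this choice more easily, so these cells are deeper than their class.

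**Figure D5:**
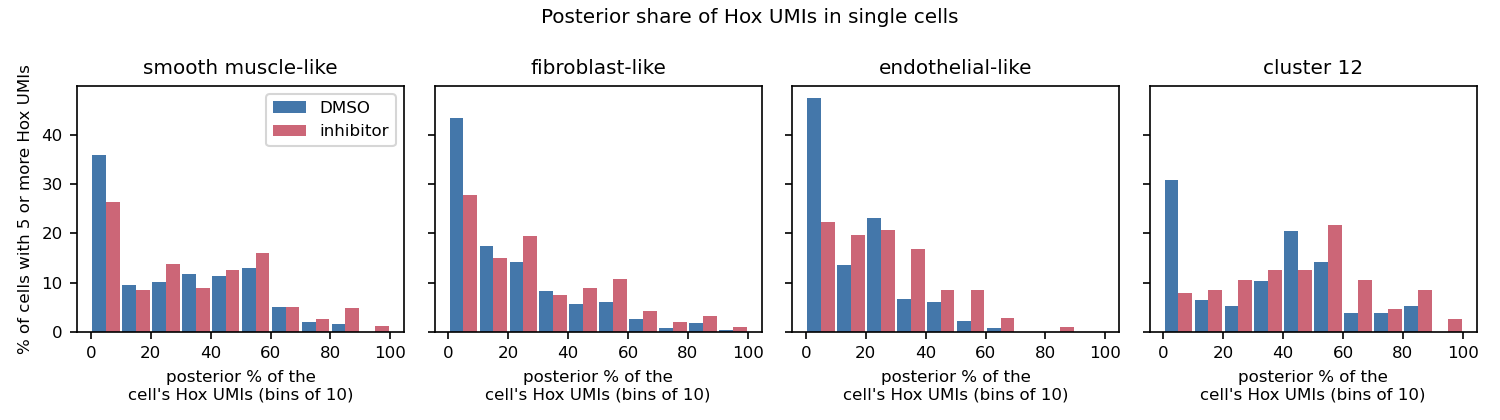
Posterior share of the Hox UMIs of single cells with 5 or more of them (horizontal axis, percent, bins of 10) against the percent of such cells (vertical axis), for 3 classes and cluster 12 in each library. The DMSO bars are taller in the lowest bin, and the inhibitor bars of cluster 12 are spread to the right, with 48% of its cells at 50% or more.

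Some posterior members were found more often in cells that held another from a different complex, and others not clearly so. After thinning to 4000 UMIs, 28.9% of fibroblast-like DMSO cells with a Hoxa10 UMI (24 of 83) also held Hoxc10, against 6.33% of cells without Hoxa10. In the inhibitor library it was 26.5% (31 of 117) against 6.83%. These paralogues lie on chromosomes 6 and 15 and have the homeoboxes shown above. In smooth muscle-like cells the shares were 30.9% (21 of 68) against 12.3%, and 17.9% (53 of 296) against 11.6%. Hoxa10 with its chromosomal neighbour Hoxa9 gave 14.5% against 2.64% and 13.7% against 4.69% in fibroblast-like cells. Hoxa10 with the central Hoxa5, on the same complex, gave 19.3% against 18.5% and 15.4% against 15.5%. Hoxa5 was thus found about as often with as without Hoxa10. The posterior pair of Hoxb9 and Hoxa9, also from different complexes, showed no such excess in fibroblast-like cells: 1.56% of Hoxb9 cells (1 of 64) against 3.25% of the rest in the DMSO library, and 3.49% (3 of 86) against 5.44%. These counts are too small to read a direction. In endothelial-like cells the same pair gave 13.3% (8 of 60) against 6.39%, and 16.3% (7 of 43) against 11.1%. Hoxc10 with its neighbour Hoxc9 gave 25.8% against 11% and 16.5% against 14% in fibroblast-like cells. Sharing of cells thus varied with the pair, the class and the library, in part on few cells. Cells of a class are not of 1 cluster, and clusters differ in posterior share.

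Other transcripts of the loci, and the partners of Hox proteins with their relatives, were read from fixed lists. Of 13 non-coding genes in the complexes 7 were measured in smooth muscle-like cells, with 0 higher and 1 lower, 7 in fibroblast-like cells, with 0 higher and 2 lower, and 6 in endothelial-like cells, with 1 higher and 2 lower. Over all genes 7.80%, 8.36% and 6.62% were higher and 20.1%, 19.2% and 17.3% lower in these classes. Hotairm1, an RNA of the Hoxa complex, was highest, at 30.4 and 36.5 CPM in smooth muscle-like and 19.6 and 17.8 CPM in fibroblast-like cells. Hoxaas2 stood at 7.54 and 4.50 CPM in smooth muscle-like cells (ratio 0.596), Hoxb3os at 5.36 and 5.76 CPM, and Hoxd3os1 at 4.18 and 5.49 CPM. Hoxaas3 was at 4.15 and 2.95 CPM in fibroblast-like cells. Such genes lie across from Hox genes, and no source used here says whether counting used strand. Hox proteins bind DNA with TALE homeodomain partners of the Pbx and Meis families. The list of 11 TALE genes also holds Tgif1 and Tgif2, which are not of these families, and both were lower in all 3 classes. All 11 were measured in smooth muscle-like cells, with 1 higher and 4 lower, and in fibroblast-like cells, with 0 higher and 3 lower. Of 10 measured in endothelial-like cells 0 were higher and 3 lower. The shares over all genes are the same as for the non-coding genes. Meis2 stood at 96.4 and 97.4 CPM in smooth muscle-like and 153 and 121 CPM in fibroblast-like cells, Meis1 at 35.0 and 30.2 CPM and at 52.0 and 40.5 CPM, and Pbx2 at 22.9 and 15.6 CPM and at 22.1 and 16.7 CPM. Pbx4 (0.908 and 0.570 CPM) and Tgif2 (0.908 and 0.480 CPM), named after their values were seen, were lowest in smooth muscle-like cells. The TALE genes thus ranged widely in level.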

How the data were processed

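Single-cell libraries were made with the 10x Chromium 3′ kit, per the labels' protocols, with 5000 cells targeted in each. The authors deposited UMI counts for every gene and barcode, unnormalized. Per the file headers they come from Cell Ranger 6.1.1, and the submitters' processing notes give GRCm38 as the build and name Seurat without saying for what. Members and lists were chosen with earlier results of these data known.

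Barcodes with under 200 genes (18 in the DMSO and 10 in the inhibitor library) or over 20% mitochondrial UMIs (443 and 282) were removed. Scrublet (scanpy 1.11.5) called doublets at an expected rate of 6%. Its own threshold called 0 cells in the DMSO library (0.659), so the value from the inhibitor library (0.214) served in each, after this was seen, and 253 and 440 cells were removed. Clustering pooled the libraries with no batch correction and used 2000 variable genes without members and markers (30 components, 15 neighbours, Leiden resolution 1). A cluster was named with at least 3 markers of a list, each in at least 20% of its cells and raised over other clusters. The list also had to lead the next by at least 1.5 in mean log2 level over the lower quartile of other clusters. A median of at least 1000 UMIs was needed, and a cluster whose 10 leading genes spoke for another list was not named. By these rules 1665 DMSO and 954 inhibitor cells stayed unnamed. UMIs were added up by class and library and given as CPM with exact Poisson intervals, ratios with exact conditional intervals (scipy 1.17.1) and shares with Clopper-Pearson intervals, in Python 3.11.15. The 1.5-fold rule with its minimum of 20 UMIs was run on simulated counts that held counting error only. The genes changed there had many more UMIs and folds well beyond this limit. Changes near 1.5-fold, or in members near 20 UMIs, were thus not covered. A member was given with values where it had at least 20 UMIs in a class. Of each other list the 4 genes with the highest CPM in smooth muscle-like and in fibroblast-like cells were named. Some genes and sequences are not reported here. Gene models are those of GENCODE for GRCm38. Alternatives varied the filters, clustering, fold, zones and weights, and the closing section gives their effect.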

Additional observations from a re-analysis of the deposited data

Results flagged for a closer look

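For 7 genes, among the members and the genes named from the other lists, the ratio of inhibitor to DMSO CPM lay above 1 in one class and below 1 in another, with both intervals off 1. The difference between classes was not tested, since each ratio compares 2 libraries. One member is among them: Hoxa7 had a ratio of 1.14 (1.05 to 1.24) in fibroblast-like and 0.706 (0.646 to 0.772) in smooth muscle-like cells. Hotairm1, a non-coding RNA of the Hoxa complex, had 1.20 (1.06 to 1.36) in smooth muscle-like and 0.762 (0.578 to 0.996) in endothelial-like cells. The retinoic acid synthesis gene Aldh1a1 had 2.08 (1.97 to 2.20) in fibroblast-like and 0.375 (0.253 to 0.558) in smooth muscle-like cells. The transcription factor genes Nr2f2 (1.29, 1.25 to 1.34, in fibroblast-like and 0.519, 0.455 to 0.591, in endothelial-like cells) and Foxc1 (1.33, 1.14 to 1.56, in endothelial-like and 0.832, 0.765 to 0.904, in fibroblast-like cells) parted likewise. Gata6 had 1.48 (1.34 to 1.64) in endothelial-like and 0.905 (0.858 to 0.955) in smooth muscle-like cells, and Twist1 had 1.54 (1.18 to 2.0) and 0.460 (0.40 to 0.530). Endothelial-like cells of the inhibitor library also held more smooth muscle marker UMIs and smooth muscle-like cells fewer fibroblast marker UMIs than those of the DMSO library, and the part of this in these ratios was not tested.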

How the results depend on the processing

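No paired analysis was possible because each group holds 1 library. The higher posterior share in the inhibitor library kept its direction in the 3 main classes under every alternative run, among them a stricter mitochondrial limit and a higher gene minimum (both on the clusters as made), a finer clustering, a gate on single cells and the shared barcodes left out, the last and the inclusion of cluster 12 chosen after seeing the data. In smooth muscle-like cells the difference was 1.27 points with doublets kept, 1.43 at Leiden resolution 0.5 and 2.97 with equal cluster weights. In fibroblast-like cells it was 5.05 with equal weights and 8.62 without Hoxc8, and in endothelial-like cells 4.24 with equal weights. The anterior difference in smooth muscle-like cells (-0.588 points) was 1.19, 1.26 and 1.23 under the first 3 settings. In fibroblast-like cells (-1.23) it turned to 0.220 with equal weights. With group 4 counted as anterior it was -2.96 in fibroblast-like and -3.09 in endothelial-like cells, and the posterior share stays as it is by construction.

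The higher and lower members, 2 and 3 in smooth muscle-like, 3 and 5 in fibroblast-like and 2 and 3 in endothelial-like cells, depend on the rule. Without a minimum of UMIs they were 5 and 5, 7 and 7, and 4 and 7. With a minimum of 50 UMIs, 1 smooth muscle-like member was higher and 1 endothelial-like member lower. At 2-fold 0, 1 and 0 were higher and 2 fibroblast-like members lower. With equal weights 0, 1 and 1 were higher, with doublets kept 1 smooth muscle-like and 1 endothelial-like member was higher and 8 smooth muscle-like members lower, and with cluster 12 included 1 was higher. From the mean of the CPM of each cell 6 smooth muscle-like members were lower and 1 fibroblast-like member higher. Of 168, 140 and 110 recomputed gene ratios in the 3 classes, 142, 130 and 106 moved by less than counting error. Turns to the other side of 1 were counted only for members called higher or lower. These were Hoxa11 in smooth muscle-like cells with doublets kept (0.933), Hoxa11 in fibroblast-like cells as the mean over cells (0.906) and with equal weights (0.799), and Hoxc6 in endothelial-like cells as the mean over cells (1.21). The difference in cells with a posterior UMI in fibroblast-like cells, 3.78 points, was 7.91 at 4000 UMIs and -1.24 without thinning. Depth limits members under 20 UMIs, and 45 adipocyte-like inhibitor cells limit that class. Apart from the fewer cells or genes that a setting leaves, the cause was not tested.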

Other observations

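Macrophage-like cells had few Hox transcripts, and 1 gene made up much of them. Hoxb4, known for its role in blood stem cells, gave 36.0% of their Hox UMIs in the DMSO and 40.2% in the inhibitor library, at 10.1 and 11.3 CPM. Hoxc8, the highest member of fibroblast-like cells, stood at 1.34 and 1.06 CPM in the same macrophage-like cells, so that the order of these members was the reverse of that in fibroblasts, where Hoxb4 was at 20.1 and 18.3 CPM and Hoxc8 at 69.5 and 67.9 CPM.

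Retinoic acid regulates Hox genes in the embryo. A list of 20 genes held those of its synthesis, transport, breakdown and receptors, and the Cdx genes. Of these, 12 were measured in smooth muscle-like cells, with 0 higher and 7 lower in the inhibitor library. In fibroblast-like cells 16 were measured, with 1 higher and 7 lower, and in endothelial-like cells 13, with 1 higher and 5 lower. Over all genes 7.80%, 8.36% and 6.62% were higher and 20.1%, 19.2% and 17.3% lower in these classes. The median log2 ratios were -0.66, -0.42 and -0.26, against -0.12, -0.09 and -0.08 for all genes. The lower genes in smooth muscle-like cells, named here because they were lower, were the receptor genes Rara (17.4 and 6.72 CPM, ratio 0.385), Rarb (0.631) and Rarg (0.638), the synthesis genes Aldh1a1 (0.375) and Aldh1a3 (0.292), Cyp26b1, which breaks retinoic acid down (0.406), and the binding protein gene Crabp2 (7.45 and 0.270 CPM). Aldh1a1 stood at 67.8 and 141 CPM and Aldh1a3, another enzyme of synthesis, at 110.1 and 86.4 CPM in fibroblast-like cells. Aldh1a2, also an enzyme of synthesis and named after its value was seen, was lower there, at 95.6 and 17.0 CPM (ratio 0.178). Crabp2 stood at 53.3 and 18.2 CPM there. In smooth muscle-like cells Aldh1a1 was at 4.63 and 1.74 CPM and Aldh1a3 at 2.36 and 0.690 CPM. Fibroblast markers in smooth muscle-like cells summed to 2142 and 394 CPM, and the part of this admixture in the ratios was not tested. Dhrs3, which turns retinal back to retinol, stood at 92.4 and 89.5 CPM in smooth muscle-like cells, the receptor gene Rxra at 30.2 and 21.8 CPM and Rxrb at 24.4 and 24.2 CPM.

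Of 36 other genes of position and lineage, 22 were measured in smooth muscle-like cells (0 higher, 10 lower), 24 in fibroblast-like cells (4 higher, 9 lower) and 13 in endothelial-like cells (4 higher, 4 lower), beside the same shares over all genes. Gata6, a factor of outflow and aortic smooth muscle, was highest in the first, at 168 and 152 CPM, followed by Foxc1 (158 and 145), Nr2f2 (149.8 and 111) and Prrx1 (143 and 106). Prrx1, a gene of limb and connective tissue mesenchyme, was highest in fibroblast-like cells, at 389.8 and 311 CPM, with Nr2f2 at 209 and 269 CPM, Gata6 at 138 and 141 CPM and Twist1 at 55.3 and 57.8 CPM.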
